A study of Mus musculus with 12 samples.

Results

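The genes described are 10 genes of MHC class I antigen presentation in the mouse ileum, taken by their symbols from the 54838 genes of the deposited count table. They are the light chain gene B2m, the classical heavy chain genes H2-K1 and H2-D1, the peptide transporter genes Tap1 and Tap2, the immunoproteasome genes Psmb8, Psmb9 and Psmb10, the transactivator gene Nlrc5 and Ubd, which encodes the ubiquitin-like modifier FAT10. Adult C57BL/6J mice drank normal water or water with 25 mM ZnSO4 for 7 days and were then injected with 200 µg of dexamethasone (Dex), a synthetic glucocorticoid, in PBS, or with PBS alone. The ileum was taken 2 h later and its RNA was sequenced, from 3 mice a group, giving the groups water + PBS, water + Dex, ZnSO4 + PBS and ZnSO4 + Dex (12 libraries). Age and sex of each mouse are not in the labels. The series asks how zinc in the drinking water changes gene expression in the gut and how this relates to the changes made by Dex.

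Class I molecules carry short peptides from inside the cell to its surface, where CD8 T cells and natural killer cells read them. The proteasome cuts proteins into peptides, TAP pumps them into the endoplasmic reticulum, and a loading complex places them on a heavy chain paired with beta-2 microglobulin. Interferon gamma induces most of these genes through STAT and IRF factors, and NLRC5 binds the class I promoters with RFX, CREB and NF-Y proteins at conserved boxes. In the small intestine the epithelium carries class I molecules and lies next to intraepithelial lymphocytes, many of which are CD8 T cells.

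All libraries were of similar depth, between 10760132 and 11827487 reads counted on genes. All 10 genes passed the filter on low counts, as did 15938 genes in all. Enterocyte markers were high in every library, with a summed level of 12507 to 21326 CPM (counts scaled to a fixed library total), in a list that holds the ileal genes Fabp6 and Slc10a2. The lowest of these sums was that of library ZnSO4 + Dex 2. In a bulk sample, fewer cells of a type and less RNA per cell cannot be told apart. Levels are given as normalised read counts, which are counts scaled to a mean library of 11377723 reads, and changes as log2 fold changes (LFC). A gene was called at a Benjamini-Hochberg adjusted p under 0.05 in edgeR's quasi-likelihood test, adjusted over all 15938 genes.

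B2m lies on chromosome 2, Nlrc5 and Psmb10 on chromosome 8 and the other 7 on chromosome 17, which holds the mouse MHC. Psmb9, Tap1, Psmb8 and Tap2 are neighbours there (chr17:34181987-34216321), and Ubd lies further along (chr17:37193892-37196095). RefSeq promoters were matched for 8 of the 10 genes, all but Nlrc5 and Tap2. Those of 5 genes are printed because these genes moved together and class I promoters are known for shared boxes. The stretches run 5′ to 3′ on the coding strand, in the mouse build GRCm38 (mm10), and end at the base before the RefSeq start. B2m (chr2:122147437-122147686, + strand) and H2-K1 (chr17:34000348-34000597, − strand) stand for the light and heavy chain, and Ubd (chr17:37193642-37193891, + strand) is the gene with the largest change. Tap1 and Psmb9 point away from each other and share the 225 bases between their starts (chr17:34187331-34187555), shown on the strand of Tap1. Capitals mark matches to motifs.
B2m: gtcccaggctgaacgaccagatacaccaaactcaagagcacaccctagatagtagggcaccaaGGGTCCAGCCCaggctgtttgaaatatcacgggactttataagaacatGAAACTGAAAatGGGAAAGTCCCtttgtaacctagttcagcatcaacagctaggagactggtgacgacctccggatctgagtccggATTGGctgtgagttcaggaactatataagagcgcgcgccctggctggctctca
H2-K1: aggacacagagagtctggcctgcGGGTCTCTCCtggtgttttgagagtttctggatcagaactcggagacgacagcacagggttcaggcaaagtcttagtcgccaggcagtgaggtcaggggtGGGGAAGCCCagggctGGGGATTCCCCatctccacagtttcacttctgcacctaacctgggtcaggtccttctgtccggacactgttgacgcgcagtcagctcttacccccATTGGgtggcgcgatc
Tap1 and Psmb9: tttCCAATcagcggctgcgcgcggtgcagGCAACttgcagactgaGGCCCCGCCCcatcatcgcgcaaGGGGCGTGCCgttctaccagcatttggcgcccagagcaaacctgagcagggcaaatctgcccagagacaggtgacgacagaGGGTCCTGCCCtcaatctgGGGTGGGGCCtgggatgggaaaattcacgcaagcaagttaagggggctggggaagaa
Ubd: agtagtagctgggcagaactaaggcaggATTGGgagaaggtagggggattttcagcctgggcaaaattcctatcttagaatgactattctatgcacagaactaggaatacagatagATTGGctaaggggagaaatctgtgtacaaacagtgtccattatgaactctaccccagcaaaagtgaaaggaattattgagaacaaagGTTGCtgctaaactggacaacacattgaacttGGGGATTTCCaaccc
The motifs were searched on both strands and spelled as follows: an ISRE as GAAA, 2 bases and GAAA, a GAS site as TTC, 3 bases and GAA, an NF-kB site as GGG, 5 bases and CC, the CCAAT box as CCAAT, the core of the X1 box as GCAAC, and a glucocorticoid response element as AGNACA, 3 bases and TGTNCT. Matches to the NF-kB spelling often overlapped each other on opposite strands. In windows of 300 bases around the start (250 before, 50 after), the ISRE spelling was found in B2m alone among the 8 genes with a window, and in 3.44% of all 32851 windows. A CCAAT box was found in 6 of the 8 (B2m, H2-K1, H2-D1, Tap1, Psmb9 and Ubd), against 37.4% of all windows, and the NF-kB spelling in the same 6, against 50.8%. The X1 core was found in H2-D1, Tap1, Psmb9 and Ubd, against 35.2% of windows. Tap1 and Psmb9 hold the same CCAAT box, NF-kB matches and X1 core in the stretch they share, so these sites enter the counts for both genes. A gene was counted with a match in any of its windows, whereas the shares are of single windows. The GAS spelling was found in Psmb8, against 8.3% of windows. The glucocorticoid response element was found in none of the 8 and in 0.0639% of all windows. These matches describe letters only, and sites that differ from the spellings by a base or in the gap were neither counted nor marked.

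With ZnSO4 in the drinking water, the whole group was lower. The 10 genes were chosen with earlier results of these data known. The study had already listed Ubd, Tap1, Nlrc5 and Psmb9 as lower with zinc in these libraries. Averaged over PBS and Dex, all 10 genes were called lower and none higher, where 6.52% of all tested genes were called lower and 6.24% higher, and their median LFC was -1.0 against -0.00 over all genes. In mice injected with PBS, 9 of 10 were called lower (2.54% of all genes), the exception being H2-K1 with an LFC of -0.60 ± 0.15 (SE) and an adjusted p of 0.0503. In mice injected with Dex, 10 of 10 were called lower (2.54% of all genes). The groups did not overlap for any of the 10 with PBS (12.9% of all genes) or with Dex (13.2%). For every one of the 10 genes, each of the 6 ZnSO4 libraries lay below each of the 6 water libraries, a separation that 2.62% of all genes showed in this direction. With the study's additional cut-off of an LFC of 0.8 in size, 5 genes remained in the PBS comparison (0.954% of all genes).

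**Figure D1:**
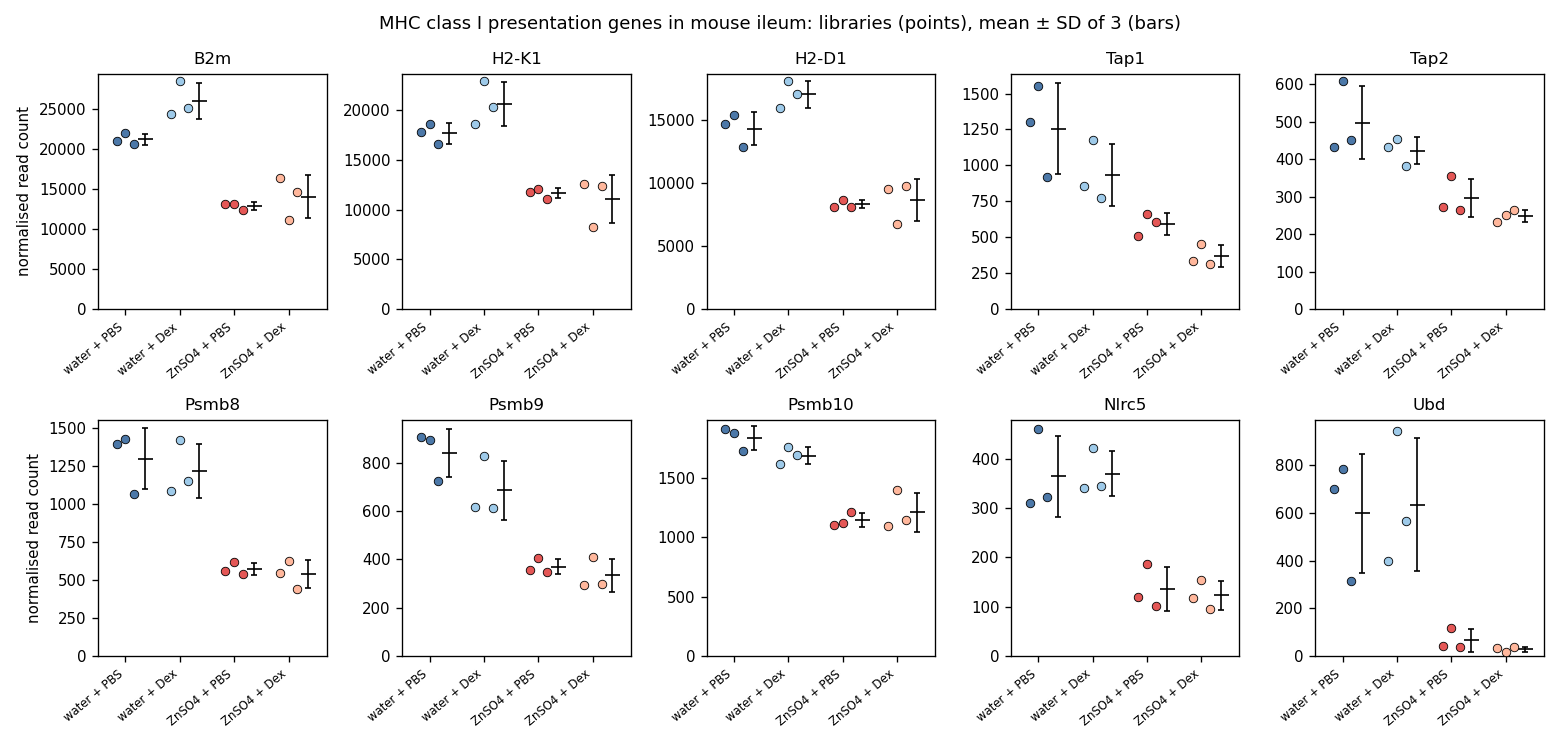
Normalised read counts (y axes, each starting at 0) of the 10 genes in the 4 groups. Points are libraries in the order of their replicate number, bars are mean ± SD of 3, and in every panel the 6 ZnSO4 libraries lie below the 6 water libraries.

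The light chain and the classical heavy chains were the most abundant members. Per kilobase of exon, B2m stood at 2173 ± 72.6 CPM in water + PBS (SD, n = 3), H2-K1 at 528 CPM and H2-D1 at 488 CPM, whereas the other genes ranged from 94.8 CPM for Psmb10 to 3.76 CPM for Nlrc5. B2m, the invariant chain of every class I molecule, had normalised counts of 21069.9, 22047 and 20665 in water + PBS and 24483, 28610.1 and 25131 in water + Dex. Its counts were 13153, 13194 and 12354 in ZnSO4 + PBS and 16456, 11144 and 14634 in ZnSO4 + Dex. No ZnSO4 library reached the lowest water library, and library ZnSO4 + Dex 2 was the lowest of all. The LFC was -0.72 ± 0.14 with PBS (adjusted p = 0.016) and -0.89 ± 0.14 with Dex (adjusted p = 0.0051), which leaves 60.7% and 54.0% of the water level.

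H2-K1, a classical heavy chain, had normalised counts of 17786, 18623 and 16584 in water + PBS and 11772, 12113 and 11093 in ZnSO4 + PBS. These groups did not overlap although the gene missed the threshold in this comparison, and DESeq2 called it (adjusted p = 0.0029). After Dex, its counts were 18568, 22949 and 20289 with water and 12553, 8294 and 12349 with ZnSO4, an LFC of -0.90 ± 0.16 (adjusted p = 0.0083). H2-D1, the other classical heavy chain of this strain, fell from 14332 ± 1288 to 8325 ± 315 with PBS (LFC -0.78 ± 0.14, adjusted p = 0.011). After Dex it fell from 17056 ± 1069 to 8695 ± 1672 (LFC -0.97 ± 0.14, adjusted p = 0.0033). H2-K1 and H2-D1 share sequence, with 22.8% and 26.7% of their 31-base stretches found in other genes. Reads with more than 1 position were left out of the counts.

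The transporter genes were lower as well. Tap1, the first chain of the peptide pump, had normalised counts of 1299.7, 1550.2 and 918 in water + PBS and 508, 664 and 606 in ZnSO4 + PBS. After Dex, its counts were 854, 1175 and 770.4 with water and 338, 456 and 312 with ZnSO4. The water mice varied more than the ZnSO4 mice but stayed above them. The LFC was -1.08 ± 0.21 with PBS (adjusted p = 0.017) and -1.34 ± 0.22 with Dex (adjusted p = 0.0063). Tap2, the second chain of the pump, had an LFC of -0.74 ± 0.15 with PBS (adjusted p = 0.018) and of -0.76 ± 0.15 with Dex (adjusted p = 0.016). Of the exon sequence of Tap2, 18.5% overlaps genes on the opposite strand, and for Psmb8 this share is 14.7%. The libraries were stranded, but the strand setting of the counting is not given in the sources used here.

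The immunoproteasome genes encode the catalytic subunits that replace constitutive ones when interferon acts. Psmb8 had normalised counts of 1393, 1429 and 1067 in water + PBS and 557, 619.6 and 538 in ZnSO4 + PBS. After Dex, its counts were 1083, 1420.2 and 1151 with water and 542, 627 and 443 with ZnSO4, so that the lowest water library stood far above the highest ZnSO4 library. The LFC was -1.18 ± 0.15 in both settings, with adjusted p of 0.0017 with PBS and 0.0018 with Dex. Psmb9 fell from 841 ± 100.2 to 368 ± 30.5 with PBS (LFC -1.19 ± 0.16, adjusted p = 0.0024). After Dex, Psmb9 fell from 685 ± 122 to 333 ± 67.3 (LFC -1.04 ± 0.16, adjusted p = 0.0042). Psmb10 moved less, with an LFC of -0.68 ± 0.09 with PBS (adjusted p = 0.0027) and of -0.48 ± 0.09 with Dex (adjusted p = 0.015).

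Each inducible subunit was also set against the constitutive subunit it replaces, as a ratio of normalised counts in the same library. Psmb8 over Psmb5 was 4.03, 4.38 and 4.22 in water + PBS, 3.74, 4.94 and 3.80 in water + Dex, 1.97, 2.37 and 1.79 in ZnSO4 + PBS and 2.15, 2.08 and 1.37 in ZnSO4 + Dex. The ratio was lower in every ZnSO4 library than in any water library. Its geometric mean was 1.93 with ZnSO4 and 4.16 with water, a log2 difference of -1.11. Psmb9 over Psmb6 went from 0.651 to 0.328 (log2 difference -0.99), and Psmb10 over Psmb7 from 2.71 to 2.11 (log2 difference -0.36), again without overlap. Each of these 3 differences had p = 0.0050 in a two-sided exact permutation test within the PBS and Dex mice (n = 6 against 6, 400 arrangements) and an adjusted p of 0.010 over 6 ratio tests, where 0.0050 is the smallest p this test can give. Psmb5 itself had an LFC of -0.07 ± 0.09 for ZnSO4 (adjusted p = 0.68). Much of its sequence is repeated elsewhere in the annotation, namely 71.7% of all stretches of 31 bases.

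**Figure D2:**
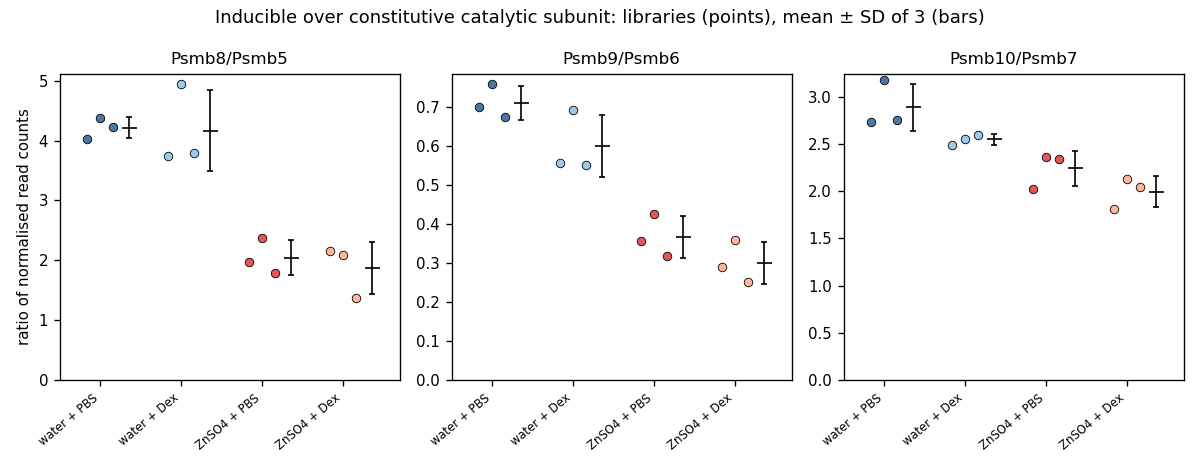
Ratio of normalised read counts (y axes, starting at 0) of each inducible subunit to the constitutive subunit it replaces. Points are libraries, bars are mean ± SD of 3, and the 6 ZnSO4 libraries lie below the 6 water libraries in each panel.

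Nlrc5, the transactivator of class I genes, was the least abundant member and had the second largest change. Its normalised counts were 310.3, 459 and 322 in water + PBS, 341, 422 and 345 in water + Dex, 119.7, 187 and 102 in ZnSO4 + PBS and 118, 154 and 96.1 in ZnSO4 + Dex. Both water groups overlapped, as did both ZnSO4 groups, with a wide gap between water and ZnSO4. The LFC was -1.42 ± 0.24 with PBS (adjusted p = 0.0087) and -1.59 ± 0.24 with Dex (adjusted p = 0.0044).

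Ubd encodes FAT10, a modifier that tags proteins for the proteasome and is induced by interferon gamma and TNF. Its normalised counts were 699, 784 and 315 in water + PBS and 397, 942 and 565 in water + Dex. They were 39.6, 119 and 36.1 in ZnSO4 + PBS and 33.2, 16.3 and 36.3 in ZnSO4 + Dex. Water mice differed widely among themselves, yet the lowest of them stood above the highest ZnSO4 mouse. The LFC was -3.20 ± 0.52 with PBS (9.20-fold lower, adjusted p = 0.0062) and -4.48 ± 0.57 with Dex (22.3-fold lower, adjusted p = 0.0018). Without library ZnSO4 + PBS 2, the highest of the ZnSO4 mice for Ubd, the LFC with PBS was -3.98.

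Several calls in the PBS comparison were lost when a single library was left out, with LFCs of the lost genes between -1.10 and -0.57. Leaving out library ZnSO4 + PBS 3 left 5 of 10 genes called, as B2m (LFC -0.69), H2-D1 (-0.77), Tap1 (-1.10) and Tap2 (-0.66) were lost with adjusted p of 0.075, 0.0501, 0.063 and 0.081. Leaving out water + PBS 1, water + PBS 2 or ZnSO4 + PBS 1 left 6, and leaving out ZnSO4 + Dex 2, which shares the estimate of the spread, gave 10. Over all genes, 405 were called lower in the full fit and 145 without ZnSO4 + PBS 3. They numbered 140, 247 and 147 without water + PBS 1, water + PBS 2 or ZnSO4 + PBS 1, and 545 without ZnSO4 + Dex 2. In the comparison after Dex, Psmb10 and Tap2 were both lost without water + Dex 2 (LFC -0.44 and -0.70) or ZnSO4 + Dex 1 (-0.41 and -0.72), Psmb10 without water + Dex 3 (-0.48) and Tap2 without water + Dex 1 (-0.74). Over all genes, the calls lower after Dex went from 405 to 185, 252, 193 and 215 without these libraries, in the same order. The averaged comparison kept all 10 in each of the 12 fits without a library.

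**Figure D3:**
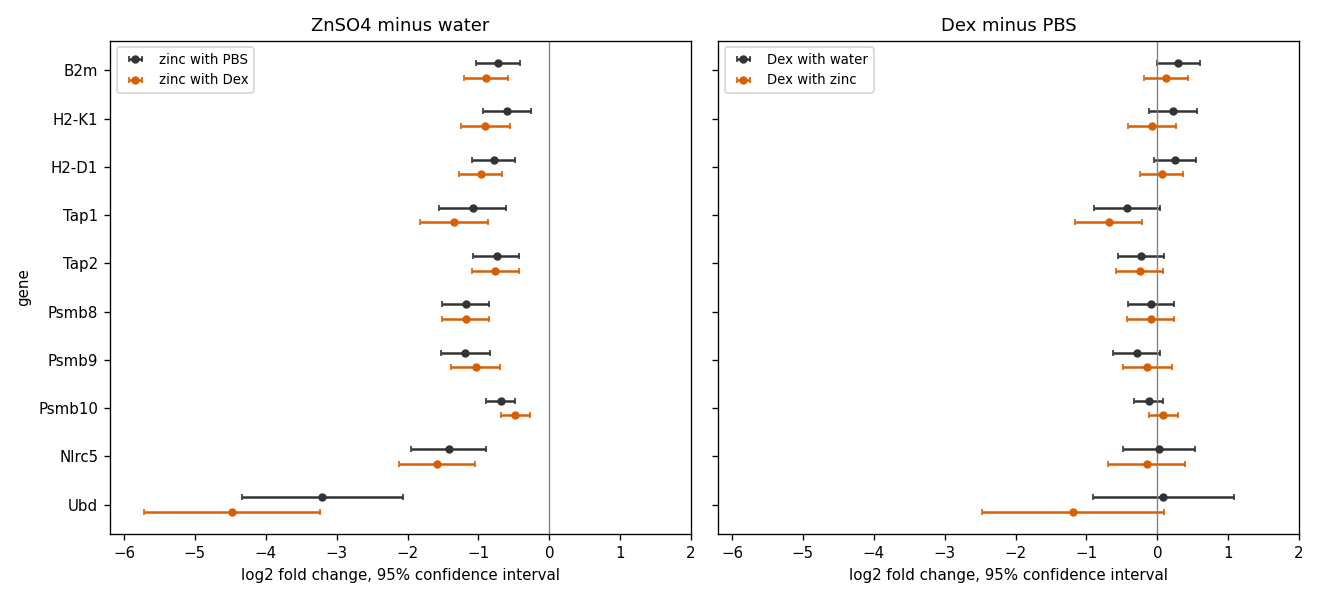
LFC with its 95% confidence interval (x axes) of each gene (y axis) for ZnSO4 against water, left, and for Dex against PBS, right, each in both settings of the other treatment. All intervals for ZnSO4 lie below 0, while those for Dex include 0 for all genes except Tap1 in ZnSO4 mice.

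Dex at 2 h gave no such shift. None of the 10 genes was called in water mice, where 4.51% of all genes were called lower and 5.41% higher, and none in ZnSO4 mice, where the shares were 7.08% and 6.65%. At an unadjusted p under 0.05 the only member was Tap1 in ZnSO4 mice. DESeq2 called none in water mice and Tap1 in ZnSO4 mice (adjusted p = 0.014). The 95% intervals bound what could have been missed: for Nlrc5 in water mice the LFC was 0.02, from -0.49 to 0.53, and for Psmb8 it was -0.09, from -0.41 to 0.23. For Ubd the interval was wide, from -0.91 to 1.08 in water mice and from -2.47 to 0.09 in ZnSO4 mice.

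B2m and H2-D1 were higher in each water + Dex library than in any water + PBS library (15.2% of all genes), with LFCs of 0.29 ± 0.14 (adjusted p = 0.24) and 0.25 ± 0.14 (adjusted p = 0.32), which missed the threshold. Averaged over water and ZnSO4, the one member called was Tap1, lower with an LFC of -0.56 ± 0.15 (adjusted p = 0.022), where 11.2% of all genes were called lower and 10.4% higher. This call was lost in 6 of the 12 fits without a library: those without water + PBS 2, water + Dex 1, water + Dex 3, ZnSO4 + PBS 2, ZnSO4 + Dex 1 or ZnSO4 + Dex 3, with adjusted p between 0.0506 and 0.056. In ZnSO4 mice all 3 Tap1 counts after Dex lay below those after PBS, which 14.9% of all genes showed (LFC -0.68 ± 0.22, adjusted p = 0.060). Without library ZnSO4 + Dex 2, the averaged comparison called B2m higher (LFC 0.28, adjusted p = 0.011), H2-D1 higher (LFC 0.23, adjusted p = 0.023) and Psmb9 lower (LFC -0.31, adjusted p = 0.0471). The subunit ratios were compared by exact permutation tests as above, but within the water and the ZnSO4 mice. Psmb10 over Psmb7 was lower after Dex (log2 difference -0.17, adjusted p = 0.022) and so was Psmb9 over Psmb6 (-0.27, adjusted p = 0.0480). Psmb8 over Psmb5 differed by -0.09 (adjusted p = 0.55). Psmb10 and Psmb9 themselves had averaged LFCs of -0.02 and -0.22 for Dex (adjusted p = 0.86 and 0.20 in edgeR's test). Mean Psmb7 counts were 638 after PBS and 661 after Dex in water mice, and 512 and 606 in ZnSO4 mice.

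The ZnSO4 effects with and without Dex share no library, but they enter 1 model, and the Dex comparisons use the same 12 libraries as the ZnSO4 comparisons. The difference between the ZnSO4 effects, the interaction, was called for none of the 10 genes and for 0 of all tested genes by edgeR (0%), with 380 genes lower and 414 higher at an unadjusted p under 0.05, and for 6 genes by DESeq2, 2 lower and 4 higher. For Ubd the difference was -1.27 ± 0.74 (adjusted p = 0.95 in edgeR's test) with an interval from -2.90 to 0.35. ZnSO4 + Dex against water + PBS gave all 10 genes lower (11.9% of all genes), with a median LFC of -1.13. Fitted on these 2 groups alone, 8 were called, without B2m (LFC -0.59, adjusted p = 0.065) and H2-K1 (LFC -0.67, adjusted p = 0.0518). In this comparison Ubd was at 4.77% of the water + PBS mean, Tap1 at 29.4% and Nlrc5 at 33.7%.

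Mice of 1 group often deviated in the same direction across these genes. Library water + PBS 2 stood above its group mean for 10 of 10 genes and water + PBS 3 stood below it for all 10. Library water + Dex 2 was above its group mean for 10 of 10, and ZnSO4 + PBS 2 for 9. The libraries above for 9 or 10 genes also had the highest T cell marker sum of their group. It was 201 CPM in water + PBS 2 (others 108 and 107). In water + Dex 2 it was 131 (others 111 and 102), and in ZnSO4 + PBS 2 121 (others 75.1 and 56.1). Their intraepithelial lymphocyte sums were 216, 363 and 58.7 CPM, the middle, highest and lowest of their groups. The part of lymphocyte content was not tested, nor the share of all genes deviating alike. Library ZnSO4 + Dex 2 was split, with B2m, H2-K1, H2-D1 and Ubd at the lowest count of the 12 libraries and Psmb8, Psmb9, Psmb10, Tap1 and Nlrc5 at the highest count of its group. It also had the lowest enterocyte marker sum (12507 CPM) and the highest intraepithelial lymphocyte marker sum of the ZnSO4 libraries (105 CPM), and the part of these in the split was not tested.

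The other genes of the pathway were taken as lists. Of 17 further class I and class I-like chains, 6 were called lower by ZnSO4 in the averaged comparison (6.52% of all genes) and none higher. Their median LFC was -0.53 against -0.00 over all genes. H2-Q1 had the largest change, from 634 ± 81.6 to 338 ± 109.7 with PBS and from 749.8 ± 31 to 289 ± 119.7 after Dex (averaged LFC -1.14 ± 0.21, adjusted p = 0.0042). H2-Q2 (-0.80), H2-Q7 (-0.78), H2-Q4 (-0.75), H2-T23 (-0.61), the source of the Qa-1 molecule read by natural killer cells, and H2-T22 (-0.53) followed. These genes share much sequence, 51.0% of the 31-base stretches in H2-T22, so that reads may be lost or assigned unevenly among them. Fcgrt, a class I-like chain that carries antibodies across the epithelium, had an averaged LFC of 0.97 ± 0.10 for Dex (adjusted p = 3.8e-05). Its counts rose from 957 ± 149 to 1733 ± 68.4 in water mice and from 950.0 ± 119 to 2013 ± 363 in ZnSO4 mice. H2-Bl was lower after Dex (LFC -0.82, adjusted p = 0.044), a call kept in 3 of the 12 fits without a library.

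Peptide loading genes fell by less than the transporter genes. Of 7 genes, 5 were called lower by ZnSO4 (median LFC -0.37), where 6.52% of all genes were. They were the tapasin gene Tapbp (LFC -0.40), its relative Tapbpl (-0.47), and the chaperones Calr (-0.47), Canx (-0.37) and Pdia3 (-0.37). The trimming peptidases Erap1 and Lnpep were not called. Both subunits of the interferon-induced proteasome activator PA28 were lower, Psme1 with an LFC of -0.53 ± 0.05 (adjusted p = 9.8e-05) and Psme2 with -0.58 ± 0.06 (adjusted p = 1.4e-04), while Psme3, which forms a different activator, had an LFC of 0.04 and was not called. Of the 14 constitutive proteasome subunits, 8 were called lower by ZnSO4 (6.52% of all genes), with a median LFC of -0.18. Psma1 had the largest change (-0.36 ± 0.05, adjusted p = 4.8e-04). Of the 3 genes for partners of FAT10, Nub1 was called lower by ZnSO4 (LFC -0.20 ± 0.06, adjusted p = 0.041), which held in 1 of the 12 fits without a library. Averaged over water and ZnSO4, Dex called none of the 7 loading genes, none of the 3 activator genes, Psma6 higher (LFC 0.22, adjusted p = 0.0092) and Ube2z, the FAT10 conjugating enzyme, lower (LFC -0.19, adjusted p = 0.013). In ZnSO4 mice alone, Dex also called Psme3 higher (LFC 0.30 ± 0.07, adjusted p = 0.014) and Nub1 lower (LFC -0.29 ± 0.08, adjusted p = 0.039).

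Of 8 factors that bind class I promoters, Irf1 was the only one called for ZnSO4. Irf1 had 3069 ± 459.6 normalised counts in water + PBS, 1358 ± 61.2 in water + Dex, 1758 ± 94.4 in ZnSO4 + PBS and 877 ± 39.5 in ZnSO4 + Dex. Each treated group was below water + PBS and ZnSO4 + Dex was below all others, without overlap. The averaged LFC of Irf1 was -0.72 ± 0.07 for ZnSO4 (adjusted p = 1.2e-04) and -1.09 ± 0.07 for Dex (adjusted p = 9.6e-07). The gene for this factor was lower after Dex than after PBS in both settings, and its part in the class I levels was not tested. In the averaged Dex comparison Rfxap and Nfyb were also called lower, with LFCs of -0.32 (adjusted p = 0.0097) and -0.22 (adjusted p = 0.036). Rfx5, Rfxank, Nfya, Nfyc and Irf2 were not called for either treatment.

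Among the genes for interferon receptors, kinases and STAT factors, Stat2, a transducer of type I interferon signals, was called lower for either treatment in the averaged comparisons. Stat2 had LFCs of -0.54 ± 0.07 for ZnSO4 (adjusted p = 7.3e-04) and -0.41 ± 0.07 for Dex (adjusted p = 0.0016). Tyk2, a kinase of the type I receptor, was lower after Dex (LFC -0.16, adjusted p = 0.0489) and Ifngr1 was higher (LFC 0.19, adjusted p = 0.0462). Ifng itself had 18 reads over all libraries and did not pass the filter.

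**Figure D4:**
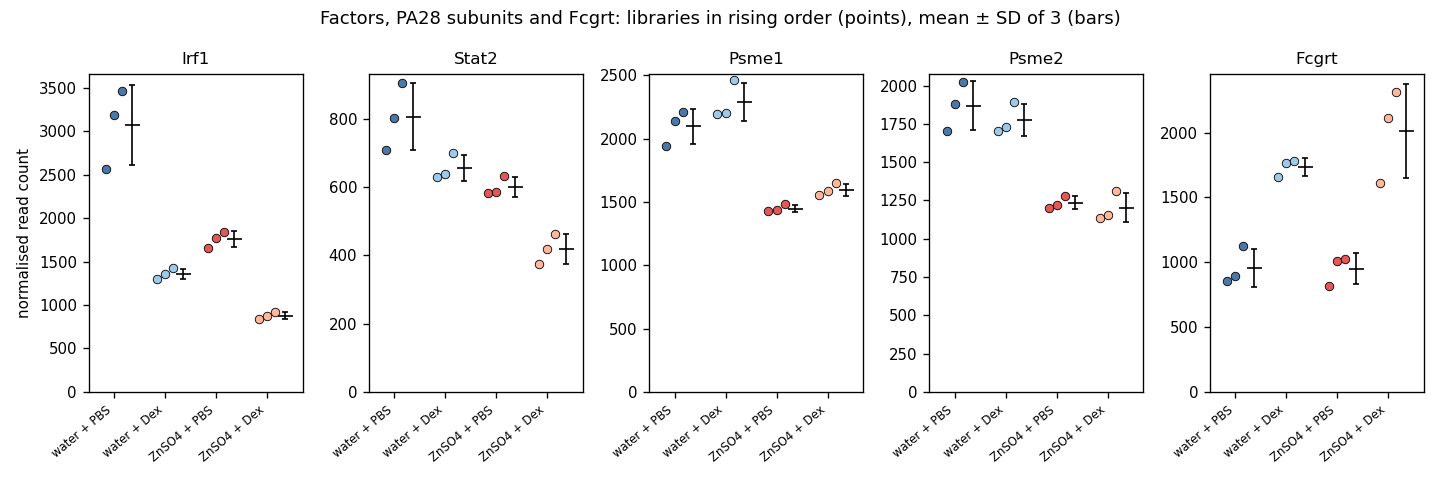
Normalised read counts (y axes, starting at 0) of factor genes, PA28 subunit genes and Fcgrt. Points are libraries in rising order within each group, bars are mean ± SD of 3: Irf1 and Stat2 have lower means with either treatment, Psme1 and Psme2 with ZnSO4, and Fcgrt is higher after Dex.

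Markers of lymphocytes moved with ZnSO4 too. The 8 intraepithelial lymphocyte markers, none of them at 0 in a group, summed to 161 to 258 CPM in water + PBS, 205 to 363 in water + Dex, 58.7 to 76.4 in ZnSO4 + PBS and 77.6 to 105 in ZnSO4 + Dex, without overlap between water and ZnSO4. In the averaged comparison 6 of the 8 were called lower (6.52% of all genes). Among them were the granule proteases Gzmb (LFC -2.10 ± 0.23, adjusted p = 2.0e-04) and Gzma (-1.85 ± 0.20, adjusted p = 2.0e-04). Gzma and Gzmb made up most of the sums, with mean normalised counts of 1275 and 564 in water + PBS, against 287 for Itgae. Single markers could overlap: the lowest water library was below the highest ZnSO4 library for Itgae (224 and 232) and Klrk1 (19.5 and 28.0). Of the 10 T cell markers, 5 were called lower (6.52% of all genes), Cd8a with an LFC of -1.27 ± 0.15 (adjusted p = 3.1e-04). T cell marker sums were 107 to 201 CPM in water + PBS, 102 to 131 in water + Dex, 56.1 to 121 in ZnSO4 + PBS and 58.0 to 60.0 in ZnSO4 + Dex. Of the 10 B cell markers none was called, and their sums ran from 35.8 to 715 CPM within water + PBS alone. Of the 8 macrophage and dendritic cell markers none was called for ZnSO4, with sums of 148 to 196 CPM in the water groups and 126 to 166 in the ZnSO4 groups.

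Of 8 enterocyte markers, Krt20 was called lower, with an LFC of -0.47 (adjusted p = 0.040). Of 5 plasma cell markers Mzb1 and Derl3 were called lower (median LFC of the list -0.65), and of 6 Paneth cell markers Mmp7 (median -0.10, with 4 LFCs below 0 and 2 above). Of 5 smooth muscle markers Tagln was called higher (median 0.38), and of 5 endothelial markers Cdh5 and Tek (median 0.33). Other genes overlap 57.2% of the Mzb1 exons on the same strand and 67.9% of the Tagln exons on the opposite strand.

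With the mean T cell marker level as a covariate, the averaged ZnSO4 comparison called 9 of the 10 class I genes lower, losing H2-K1 (adjusted p = 0.062). In the PBS comparison 6 were called, without B2m (adjusted p = 0.091), H2-D1 (0.068) and Tap1 (0.12), and in the comparison after Dex 3 (Psmb8, Nlrc5 and Ubd). Over all genes, the T cell covariate left 302 called lower in the averaged comparison, 157 with PBS and 84 after Dex. Without it these numbers were 1039, 405 and 405. With the intraepithelial lymphocyte markers as covariate, an alternative added because these markers differed between the groups and so chosen with the data in view, none of the 10 was called for ZnSO4. Under that covariate 25 of all genes were called lower in the averaged comparison, against 1039 without it. The markers differ between the same groups as the treatment. The LFCs of B2m (-0.86), H2-K1 (-0.79) and H2-D1 (-0.90) stayed near their values without the covariate, while those of Ubd (-2.23), Nlrc5 (-0.78), Psmb8 (-0.49), Tap2 (-0.46), Psmb9 (-0.37), Psmb10 (-0.25) and Tap1 (-0.11) came nearer to 0. How much of the lower class I levels lies in lymphocytes and how much in the epithelium cannot be told apart here.

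**Figure D5:**
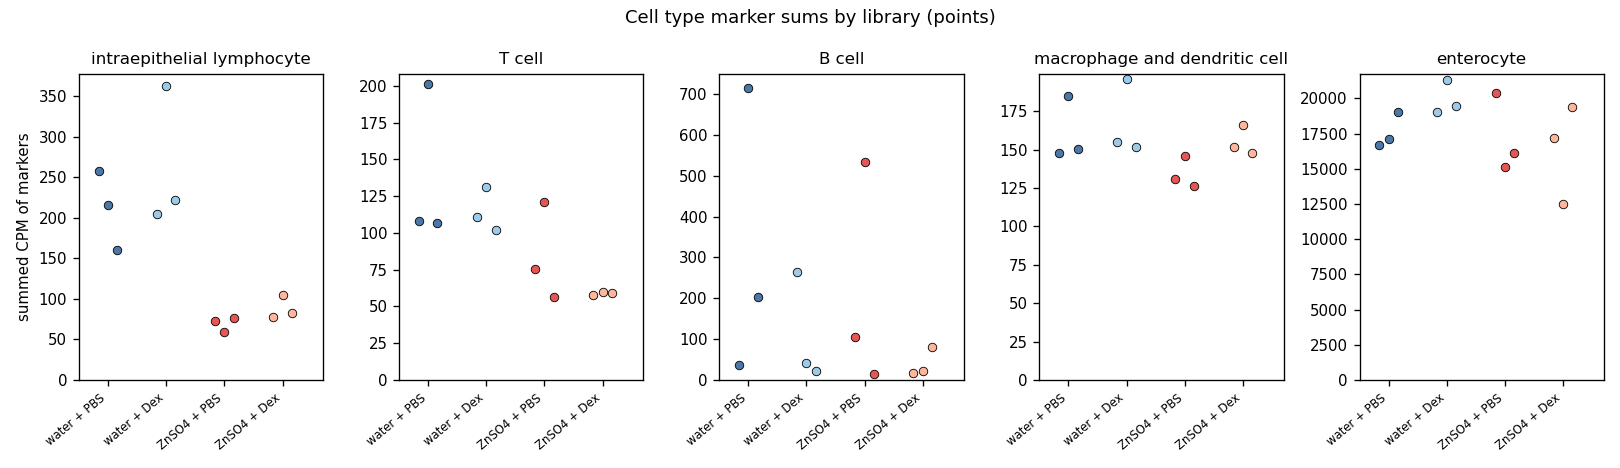
Summed CPM of cell type markers (y axes, starting at 0) by library. Points are libraries in the order of their replicate number: the 6 ZnSO4 libraries lie below the 6 water libraries for intraepithelial lymphocyte markers (58.7 to 105 against 161 to 363 CPM), and the other lists overlap between water and ZnSO4. Gzma and Gzmb make up most of the intraepithelial lymphocyte sums.

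The genes whose pattern over the 12 libraries was most like that of the 10, by the root mean square difference of scaled log2 CPM among 14961 genes, were Mfsd4a (0.150), Upp1 (0.189), Zbp1 (0.194), Smpdl3a (0.213), H2-DMa (0.218), Slc39a4 (0.225), Ifi47 (0.228), Il18bp (0.228), Ctsz (0.235) and Herc6 (0.235). Among the 10 members, measured against the mean of all of them, Ubd (0.178) and Psmb8 (0.181) were nearest and B2m (0.393) was farthest. Zbp1, a sensor of nucleic acids, had 851 normalised counts in water + PBS, 848 in water + Dex, 169 in ZnSO4 + PBS and 148 in ZnSO4 + Dex. Slc39a4, the zinc importer of the enterocyte, had 2572, 3261, 334 and 290.5 in the same order, and H2-DMa, which loads peptides on class II molecules, had 1095, 1064, 519.9 and 474. These genes were chosen for this pattern, and their values are a description.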

How the data were processed

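The authors prepared stranded libraries from ileum RNA, sequenced them single-end, mapped reads to mm10 with HISAT2 2.0.4 and counted them per gene with featureCounts, leaving out reads with several positions. The deposited values are raw counts, and the annotation release and strand setting are not given in the sources used here. Symbols came from GENCODE annotation of GRCm38, the assembly of mm10, for 54723 of 54838 identifiers, and promoters from RefSeq.

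In R 4.3.3, edgeR 4.0.16 (with limma 3.58.1) gave the main tests and DESeq2 1.42.0 the alternative. filterByExpr with a minimum count of 10 set the genes tested, which were normalised by TMM and fitted in 1 quasi-likelihood model of 4 group means. The median depth was 11388606 reads. Levels are counts scaled from each effective library size to the mean one, given as mean ± SD of 3 mice. CPM per kilobase used the union of exons. LFCs carry their SE. P-values were adjusted by the Benjamini-Hochberg method over 15938 genes. The subunit ratios used normalised counts with 0.5 added and exact permutations. With 3 mice against 3, a permutation test of 1 gene cannot go below 0.1, so none was run within the PBS or Dex mice alone.

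The genes, lists and markers were chosen with earlier results of these data known. Named were the 10 genes, the called genes of each list (up to 5 a list and comparison, by LFC, with the rest by symbol or count), Psmb5, Irf1 and the 10 genes most alike; 1 gene that this rule names is not reported here. Alternatives were DESeq2, RLE and upper-quartile factors, other filters, a block for the replicate number, fits of the compared groups alone, covariates for cell markers, the LFC cut-off of 0.8 and leaving out each library. The procedure was tested on simulated data.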

Additional observations from a re-analysis of the deposited data

How the results depend on the processing

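Averaged over PBS and Dex, all 10 genes were called lower with ZnSO4 by DESeq2 and under the other scaling factors, filters, the replicate block and the B cell covariate, 9 with the T cell covariate and 7 past an LFC of 0.8 in size. With the intraepithelial lymphocyte covariate, 0 were called for ZnSO4 with PBS, with Dex, averaged, and for both treatments against water + PBS, 1 (Tap1) for Dex in water and 1 in ZnSO4 mice, and the LFC of Tap1 for ZnSO4 with PBS was 0.03. The T cell covariate left 6 for ZnSO4 with PBS, 3 with Dex, 5 for both treatments and 0 for Dex averaged, and the B cell covariate 0 for Dex averaged. An LFC of 0.8 in size left 5 for ZnSO4 with PBS, 8 with Dex, 6 for both treatments and 0 for Dex averaged. DESeq2, the filter of 1 count and the fit of only the groups compared each called 1 (Tap1) for Dex in ZnSO4 mice. The fit of only the groups compared gave 9 for ZnSO4 with PBS, losing Tap2 (adjusted p = 0.086) and gaining H2-K1 (0.025), 9 with Dex, losing Psmb10 (0.059), and 8 for both treatments. The cause was not tested for the covariates.

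With the replicate number as a block, 1 gene was called for Dex in ZnSO4 mice (Tap1) and 2 for Dex averaged (Tap1 and Psmb9). Labels give no pairing of mice by number, and the residuals of same-numbered libraries had a median correlation of -0.053 (18 pairs), against 0.020 for others (36 pairs). The block changed no other call among the 10 genes.

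Without 1 library, the genes called lower numbered 5 to 10 for ZnSO4 with PBS, 8 to 10 with Dex, 10 to 10 averaged and for both treatments, 0 to 1 for Dex in ZnSO4 mice and 0 to 2 for Dex averaged, where 0 to 2 were higher. Over all genes, the calls lower numbered 140 to 545 for ZnSO4 with PBS, 185 to 460 with Dex and 705 to 1026 averaged. ZnSO4 with Dex lost Psmb10 and Tap2 without water + Dex 2 (adjusted p = 0.063 and 0.069). The log2 ratio differences for ZnSO4 ranged from -1.17 to -1.01 (Psmb8 over Psmb5), -1.06 to -0.93 (Psmb9 over Psmb6) and -0.39 to -0.33 (Psmb10 over Psmb7), and those for Dex from -0.15 to 0.02, -0.34 to -0.21 and -0.21 to -0.14. With 3 mice a group, small changes of Nlrc5, the least abundant member, and of Ubd, which varied widely between mice, could not be detected.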
